A study of Sus scrofa with 6 samples.

Results

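The heart draws most of its energy from fatty acids, and the genes described here cover their path from the cell surface to acetyl-CoA, together with ketone body use and triglyceride storage. Members were chosen by gene symbol from a list of 48 genes. Of these, 43 had a probe set with that single symbol on the Affymetrix Porcine Genome Array, among 6765 genes so named, and each gene was read at its probe set with the highest mean log2 signal over all arrays. CD36, MLYCD, ACACB, EHHADH and ACAT1 had no probe set under their symbols and are not analysed here. The arrays measured left ventricular (LV) free wall of Large White piglets at 28 days of age. A single intravenous dose of 2.0 mg/kg doxorubicin (Dox), an anthracycline anticancer drug with cardiac toxicity, was given to 3 animals at 8 days of age. Another 3 animals received PBS, and tissue was taken from both groups 3 weeks after injection. The study's methods place injection slightly earlier and tissue collection slightly later than the labels do, and give a range of doses. Each array held RNA of 1 animal, and how precise each value can be is limited by how few arrays there are.

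Long-chain fatty acids enter cardiac muscle cells through membrane transporters, are carried by fatty acid binding proteins and are activated to acyl-CoA by long-chain acyl-CoA synthetases. The carnitine shuttle moves them into mitochondria, where repeated cycles of dehydrogenation, hydration, a further dehydrogenation and thiolysis release acetyl-CoA. Ketone bodies enter the same acetyl-CoA pool. Fatty acids not burned at once are stored as triglyceride in lipid droplets and released again by lipases, and low fatty acid oxidation is a known feature of several forms of heart failure.

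The values given are linear MAS5 intensities, which the authors had scaled to the same trimmed mean on each array. Array controls with synthetic Tag sequences and no pig target reached at most 2.5 to 6.3 on the 6 arrays, and a signal at or below the highest of them on its array is called inside the Tag range. The cardiomyocyte identity of the tissue was clear, as 11 of 11 measured cardiomyocyte markers lay above the Tag range on all arrays, and their summed signal was 52079 to 62196 after PBS and 63143 to 81556 after Dox. As a measure of RNA integrity, signal at the 3′ end over that at the 5′ end was 1.16 to 1.28 (PBS) and 1.24 to 1.55 (Dox) for GAPDH. For actin it was 35.1 to 121 (PBS) and 29.6 to 76.9 (Dox). The actin ratio was far above the GAPDH ratio on every array, so these controls disagree and do not settle RNA integrity. In bulk tissue, fewer cells of a type and less RNA per cell cannot be told apart.

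As a whole, the fatty acid and ketone genes did not move in 1 direction. Of the 43 genes, 20 had a higher and 23 a lower mean log2 signal after Dox. The median log2 difference (Dox minus PBS) was -0.04, beside -0.10 over all 23999 probe sets tested and -0.07 over the 6765 named genes. With the call set at a Benjamini-Hochberg adjusted p no higher than 0.05 and a 2-fold change or more, limma called 0 of them, against a background of 0.0% of all probe sets, and the unpaired t-test named in the study's methods also called 0. The adjusted p of the 43 genes ran from 0.521 to 0.999. At an unadjusted p no higher than 0.05, 5 genes passed (11.6%), beside 9.54% of all probe sets and 11.5% of the named genes. The 3 that were higher were HSD17B10, PNPLA2 and GPAM (background 3.62%), and the 2 that were lower were FABP5 and CPT1A (background 5.92%). Of these 5, CPT1A and GPAM also had a fitted fold of at least 2, and 5.65% of all probe sets met both criteria. For GPAM this fold is not well measured, since 2 of 3 PBS arrays lay inside the Tag range, and its log2 difference was 0.35 with an offset of 16 before log2. The groups did not overlap for 4 genes (9.3%), beside 16.3% of all probe sets and 19.4% of the named genes. FABP3, PNPLA2 and GPAM were higher (background 6.19%) and FABP5 was lower (background 10.1%). The share by p lay near its background and the share by overlap below its own. The count of 5 was 3 without PBS replicate 2 (6.71% of all probe sets) and 3 without Dox replicate 2 (6.83%). Without Dox replicate 1 it was 13 of 43, a share above the 16.2% of all probe sets in that fit. All probe sets include unnamed ones and 15.2% inside the Tag range on all arrays, so this background is not matched to the 43 genes. Of the 13, the 4 higher were ECHS1, HSD17B10, PNPLA2 and GPAM. The 9 lower were SLC27A1, FABP5, CPT1A, SLC25A20, ACADL, ETFA, DECR1, ACAA2 and HSD17B4.

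**Figure D1:**
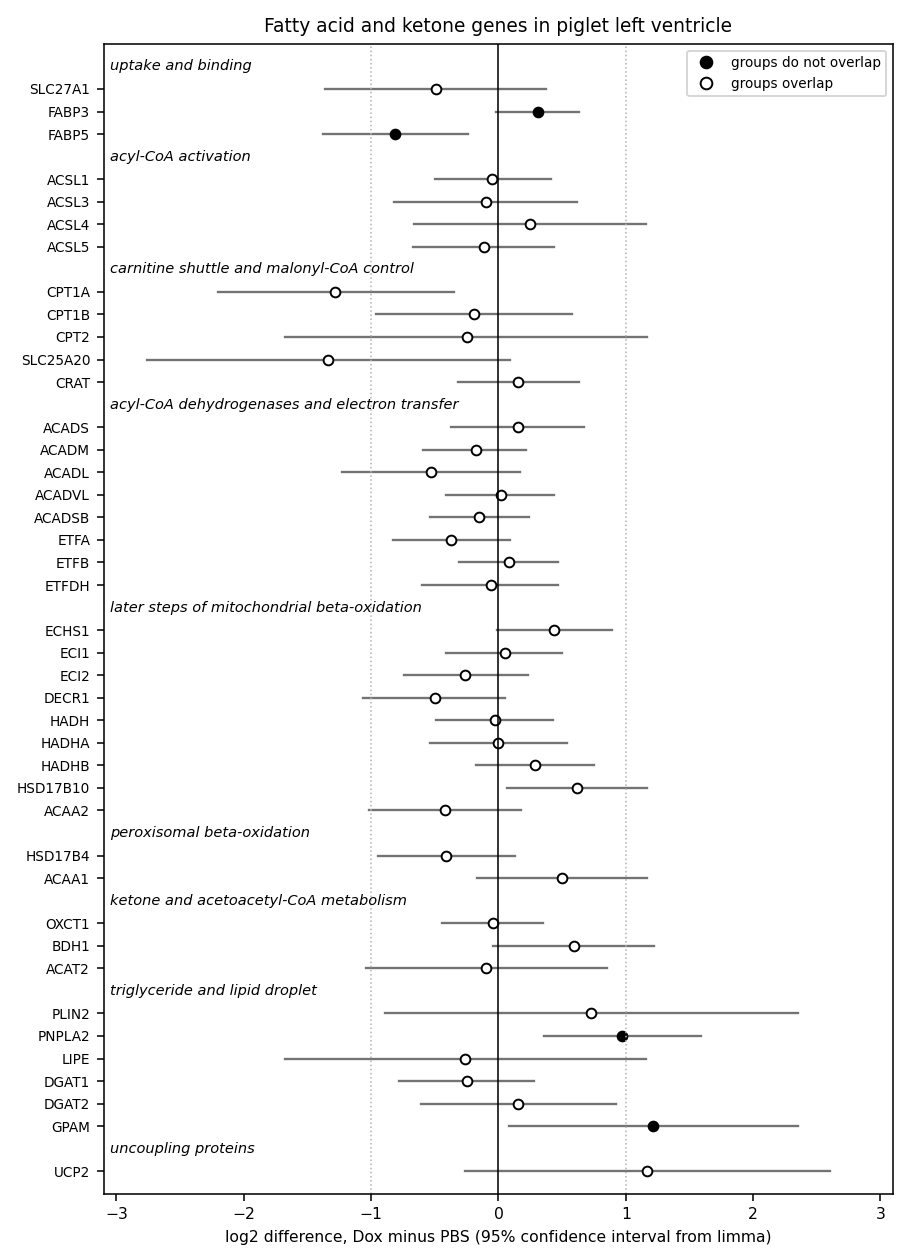
Dox minus PBS difference in mean log2 signal (x axis) for the 41 genes with a fold, ordered by role, with points for the limma estimate, grey lines for its 95% confidence interval and dotted lines at a fold of 2. Filled points mark the 4 genes whose groups do not overlap, FABP3, FABP5, PNPLA2 and GPAM, and most intervals of the oxidation enzymes lie between the dotted lines.

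Among uptake and binding genes, FABP5 had a lower and FABP3 a higher signal on every Dox array than on every PBS array, and limma called neither after adjustment. The FABP3 difference was close to 0 under quantile (-0.01) and cyclic loess (0.05) normalization between arrays. FABP5 encodes the epidermal type fatty acid binding protein, which is found in endothelial cells and macrophages among other cells. Its signal was 2984.9, 2162.3 and 1844.5 after PBS and 1783.3, 1096.8 and 1132.5 after Dox. Dox replicate 1 lay just below PBS replicate 3, and the other Dox replicates lay well below. The geometric mean was 1.75-fold lower after Dox with a limma adjusted p = 0.521. The log2 difference was -0.81 with a standard error (SE) of 0.25, and it ran from -1.03 to -0.62 when single arrays were left out. A dimmer FABP5 probe set had a log2 difference of -0.25 (SE 0.26), with overlapping groups.

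The summed signal of 7 endothelial markers was 1402 to 2031 after PBS and 1256 to 1344 after Dox, and PBS replicate 1 alone held the high value. Of these markers 3 were higher and 4 lower, with a median log2 difference of -0.14 beside -0.10 over all probe sets. CDH5, which encodes the endothelial junction protein VE-cadherin, was lower without overlap, as were 10.1% of all probe sets. The summed signal of 4 macrophage markers overlapped, at 416 to 590 after PBS and 463 to 722 after Dox. The part of these cells in the FABP5 difference was not tested.

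FABP3 encodes the heart type fatty acid binding protein, the main cytosolic carrier of fatty acids in cardiac muscle cells. Its signal was 4446.8, 4836.4 and 4821 after PBS and 5445.7, 5487.8 and 6556 after Dox, so that each Dox array lay above each PBS array. The log2 difference was 0.31 (SE 0.14, limma adjusted p = 0.533). Among the cardiomyocyte markers, 7 of 11 were likewise higher without overlap, beside 6.19% of all probe sets, with a median log2 difference of 0.29. Over all probe sets with a geometric mean signal of at least 1000, the median was 0.19 and 37.9% did not overlap in either direction. SLC27A1, which encodes a fatty acid transport protein of the plasma membrane, had a signal of 72.7 to 94.7 after PBS and 33.6 to 96.3 after Dox. Its log2 difference was -0.49 (SE 0.38, limma adjusted p = 0.665), and -0.11 without Dox replicate 3.

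Among the genes of acyl-CoA activation, limma intervals all spanned 0. ACSL1, the main long-chain acyl-CoA synthetase of heart and fat tissue, had a signal of 912.7, 1466.9 and 1240.3 after PBS and 1145.6, 1084.6 and 1216.2 after Dox. All Dox values lay within the PBS range, and the 95% confidence interval of the log2 difference of -0.05 was -0.50 to 0.41. ACSL4, a synthetase that prefers arachidonic acid, had a signal of 140.8, 122.2 and 120.5 after PBS and 98.6, 115.7 and 305.1 after Dox. Its log2 difference of 0.25 rested on Dox replicate 3, and it was -0.26 without that array. ACSL3 and ACSL5 had log2 differences of -0.10 and -0.11, with intervals of -0.82 to 0.62 and -0.67 to 0.44. Both signs turned under quantile and cyclic loess normalization, as given in the closing section. The other ACSL5 probe sets, both dimmer, had log2 differences of -0.29 (SE 0.31) and -2.01 (SE 1.2), and the mean of all its probe sets gave -0.80.

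Within the carnitine shuttle, CPT1A, SLC25A20 and the muscle isoform CPT1B had lower mean log2 signals after Dox. The limma intervals of SLC25A20 and CPT1B spanned 0, and that of CPT1A did not. CPT1A encodes the liver type carnitine palmitoyltransferase of the outer mitochondrial membrane, the rate-limiting entry step, which the heart expresses around birth and which other cells of the heart also use. Its signal was 211.4, 259.6 and 157.1 after PBS and 160.3, 71 and 53.3 after Dox. Dox replicate 1 exceeded PBS replicate 3, and the other Dox replicates lay below all PBS arrays. The geometric mean was 2.42-fold lower after Dox (log2 difference -1.28, SE 0.40, limma adjusted p = 0.521), with a range of -1.74 to -0.94 when single arrays were left out. The exact two-sided permutation test gave p = 0.2, where 0.1 is the smallest p that 3 against 3 animals allow.

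CPT1B, the muscle type enzyme of the same step, had a signal of 976.2, 1733.8 and 1414.7 after PBS and 1899.2, 1097.6 and 779.1 after Dox. The highest and the lowest value both came from Dox arrays, and the log2 difference was -0.19 (95% confidence interval -0.96 to 0.58). It was 0.11 without Dox replicate 3. SLC25A20, described in full because of its size after its values were seen, encodes the carnitine-acylcarnitine translocase of the inner mitochondrial membrane. Its signal was 220.1, 455.9 and 315.9 after PBS and 317.3, 138.4 and 44.8 after Dox. Dox replicate 1 lay at the level of PBS replicate 3, and Dox replicate 3 was the lowest of all arrays. The SLC25A20 log2 difference was -1.34 (SE 0.62, 95% confidence interval -2.76 to 0.09, limma adjusted p = 0.534). It was -0.59 with Dox replicate 3 left out and -2.01 with Dox replicate 1 left out.

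The 4 measured fibroblast markers (COL1A2, COL3A1, DCN and LUM) had lower mean log2 signals after Dox, and limma called none of them after adjustment. Their summed signal was 2151 to 2782 after PBS and 863 to 1979 after Dox, and came mostly from DCN and LUM, since COL1A2 and COL3A1 were dim. Of the 4, COL1A2 and DCN were lower without overlap, as were 10.1% of all probe sets. COL3A1 had its highest signal, 14.2, on Dox replicate 2, and the LUM groups also overlapped. The part of fibroblasts in the CPT1A and SLC25A20 differences was not tested. CPT2, the inner membrane transferase, had dim signals of 4.4 to 9.3 after PBS and 3.2 to 13.1 after Dox, inside the Tag range on 2 of the 6 arrays. CRAT, the carnitine acetyltransferase that buffers acetyl-CoA, had a log2 difference of 0.15 (95% confidence interval -0.32 to 0.63). ACACA, an acetyl-CoA carboxylase that makes the CPT1 inhibitor malonyl-CoA, had signals of 0.3 to 3.8 and was inside the Tag range on 5 of the 6 arrays, so no fold is given.

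**Figure D2:**
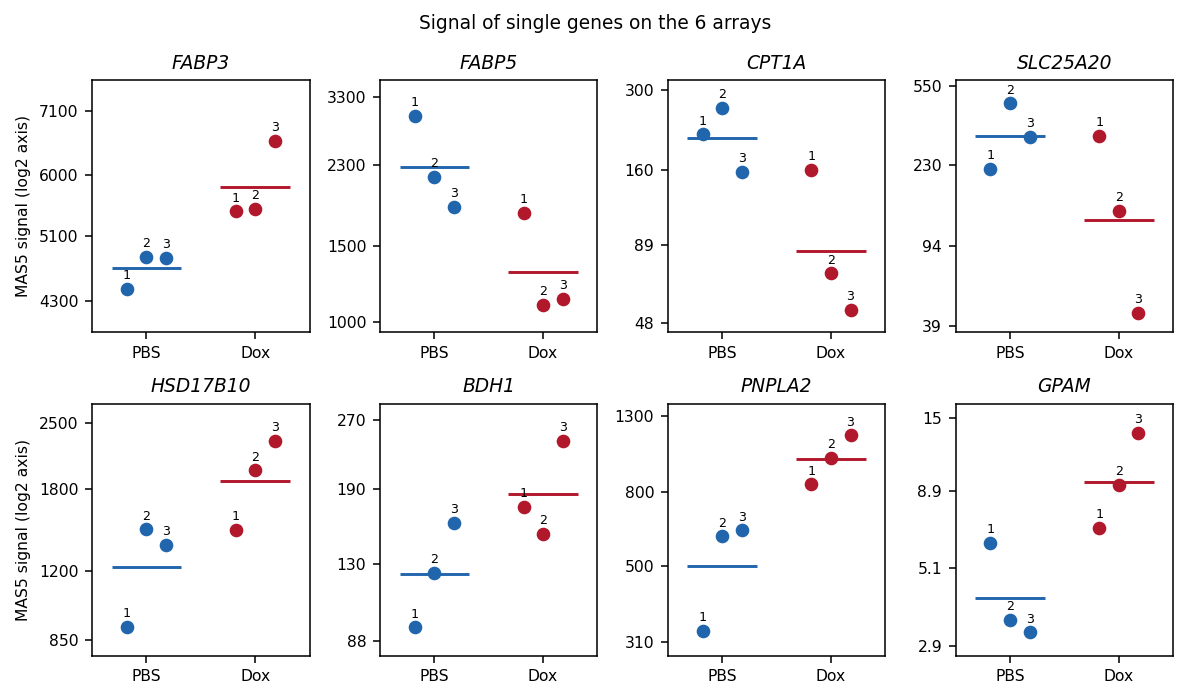
MAS5 signal (log2 axis, its own scale in each panel) of 8 genes on the PBS arrays (blue) and the Dox arrays (red), with replicate numbers beside the points and lines for the geometric mean of 3 arrays. FABP3, FABP5, PNPLA2 and GPAM separate the groups, whereas Dox replicate 1 lies among the PBS values of CPT1A, SLC25A20 and HSD17B10, as Dox replicate 2 does for BDH1.

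The mitochondrial enzymes of beta-oxidation and electron transfer, 17 genes with a probe set each, differed between the groups in both directions. Among them 8 had higher and 9 lower mean log2 signals after Dox, with a median log2 difference of -0.03. At the probe set read for each gene the groups overlapped for all 17. They did not for 16.3% of all probe sets and 37.9% of those with a geometric mean signal of at least 1000. A further probe set each of ACADVL and HADHB, described below, was higher after Dox without overlap. For 13 of the 17 the 95% confidence interval of the difference lay within a fold of 2 in either direction, without adjustment for the number of genes. The exceptions were ACADL, DECR1, HSD17B10 and ACAA2.

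Among the acyl-CoA dehydrogenases, which carry out the first step for chains of different length, ACADVL had a signal of 1744.6, 2322.8 and 1786.7 after PBS and 2326.9, 1877.3 and 1720.3 after Dox. The groups covered nearly the same range, with a log2 difference of 0.02 (95% confidence interval -0.41 to 0.44). This value turned to -0.14 under quantile and -0.13 under cyclic loess normalization. The medium-chain enzyme ACADM had a log2 difference of -0.18 (95% confidence interval -0.59 to 0.22), and the short-chain enzyme ACADS one of 0.15 (95% confidence interval -0.37 to 0.67). ACADSB, which acts on short branched chains, had a log2 difference of -0.15. ACADL, the long-chain enzyme, had signals of 630.1 to 1055.8 after PBS and 371 to 802.1 after Dox. Its log2 difference of -0.53 (95% confidence interval -1.23 to 0.17) was -0.24 without Dox replicate 3.

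Electrons from these dehydrogenases pass through the electron transfer flavoprotein, whose subunits are ETFA and ETFB, to its ubiquinone oxidoreductase ETFDH. ETFA had a signal of 1591.2, 1942.8 and 1774 after PBS and 1785.2, 1236.1 and 1144.4 after Dox. Dox replicates 2 and 3 lay below all PBS arrays and Dox replicate 1 among them (log2 difference -0.37, SE 0.20, limma adjusted p = 0.569). ETFB had a log2 difference of 0.08 (95% confidence interval -0.31 to 0.47), which was -0.02 under quantile normalization, and ETFDH one of -0.06 (95% confidence interval -0.60 to 0.47).

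In the later steps HSD17B10 had the smallest p. It encodes a short-chain hydroxyacyl-CoA dehydrogenase, which is also a subunit of mitochondrial RNase P. Its signal was 908.2, 1474.7 and 1366.3 after PBS and 1469.4, 1978.5 and 2286 after Dox. Dox replicates 2 and 3 exceeded all PBS arrays, and Dox replicate 1 lay just below PBS replicate 2. The geometric mean was 1.54-fold higher after Dox (log2 difference 0.62, SE 0.24, limma adjusted p = 0.521). The log2 difference was 0.41 without PBS replicate 1 and 0.80 without Dox replicate 1.

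ECHS1, the short-chain enoyl-CoA hydratase, had signals of 2000.3 to 2799 after PBS and 2785.5 to 4018.2 after Dox, a log2 difference of 0.44 (SE 0.20, limma adjusted p = 0.524). Under quantile and cyclic loess normalization the differences of HSD17B10 and ECHS1 stayed above 0, at no less than 0.49 and 0.23. HADH, the hydroxyacyl-CoA dehydrogenase for shorter chains, had a signal of 2720.1, 3013.9 and 3359.4 after PBS and 3927.8, 2677.8 and 2475 after Dox. The Dox arrays held both its highest and its lowest value, and the log2 difference was -0.03 (95% confidence interval -0.49 to 0.43).

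HADHA and HADHB encode the subunits of the mitochondrial trifunctional protein, which handles long chains. HADHA had a log2 difference of 0.00 (95% confidence interval -0.54 to 0.54) and HADHB one of 0.29 (95% confidence interval -0.18 to 0.75). The HADHA difference was -0.11 under quantile and -0.13 under cyclic loess normalization. DECR1, a dienoyl-CoA reductase needed for polyunsaturated fatty acids, had signals of 760 to 1007.2 after PBS and 489.2 to 844.7 after Dox (log2 difference -0.50, SE 0.24, limma adjusted p = 0.541). ACAA2, the thiolase of the last step, had a log2 difference of -0.42 (95% confidence interval -1.02 to 0.18). The enoyl-CoA isomerases ECI1 and ECI2, which act on unsaturated chains, had log2 differences of 0.05 and -0.26. That of ECI1 was -0.11 under quantile and -0.09 under cyclic loess normalization.

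Peroxisomes shorten very long chains before the mitochondria take them up, and their genes here, HSD17B4 and ACAA1, pointed in opposite directions. HSD17B4, the peroxisomal multifunctional enzyme, had a signal of 380.7, 488.9 and 477.7 after PBS and 434.8, 346.9 and 250.9 after Dox. Dox replicate 1 lay within the PBS range and the other Dox replicates below it (log2 difference -0.41, SE 0.24, limma adjusted p = 0.589). ACAA1, the peroxisomal thiolase, had signals of 108.7 to 163.3 after PBS and 156.6 to 293.4 after Dox, a log2 difference of 0.50 (SE 0.29, limma adjusted p = 0.593).

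Ketone use is represented by OXCT1, the succinyl-CoA transferase that commits acetoacetate to oxidation, and BDH1, the mitochondrial hydroxybutyrate dehydrogenase. BDH1 had a signal of 94.1, 124.4 and 160.3 after PBS and 173.4, 151.6 and 243.2 after Dox. Only PBS replicate 3 exceeded a Dox array, that of Dox replicate 2. The log2 difference of 0.59 (SE 0.28, limma adjusted p = 0.535) ran from 0.39 to 0.78 when single arrays were left out. OXCT1 had a signal of 781.2, 866.7 and 691.3 after PBS and 665.6, 774.3 and 832.2 after Dox. The groups covered nearly the same range, with a log2 difference of -0.04 (95% confidence interval -0.44 to 0.35). ACAT2, the cytosolic thiolase that makes acetoacetyl-CoA for sterol synthesis, had a log2 difference of -0.10 (95% confidence interval -1.04 to 0.85), which was 0.15 under quantile and 0.12 under cyclic loess normalization.

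Of the triglyceride and lipid droplet genes, PNPLA2 and GPAM were higher in every Dox-injected than in every PBS-injected piglet. PNPLA2 encodes adipose triglyceride lipase, which takes the first fatty acid off stored triglyceride. Its signal was 332.4, 605.3 and 628.9 after PBS and 841.3, 994.6 and 1147.8 after Dox. The geometric mean was 1.97-fold higher after Dox (log2 difference 0.97, SE 0.27). Of the 43 genes it had the smallest unadjusted p from limma, 0.00597, with an adjusted p of 0.521. The log2 difference was 0.68 without PBS replicate 1, whose signal was far below the others of its group, and at most 1.14 with any array left out. A second PNPLA2 probe set had signals of 0.9 to 6.2, inside the Tag range on 4 of the 6 arrays.

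GPAM encodes the mitochondrial acyltransferase that starts triglyceride synthesis from glycerol phosphate. Its signal was dim, at 6.1, 3.5 and 3.2 after PBS and 6.8, 9.3 and 13.5 after Dox, and inside the Tag range on 2 of the 6 arrays. The fitted log2 difference was 1.21 (SE 0.50, limma adjusted p = 0.521), and 0.78 for the mean of its probe sets. The other GPAM probe sets were dimmer and had signals of 0.6 to 8.6 and 1.9 to 6.1, with overlapping groups.

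PLIN2, which encodes a lipid droplet coat protein and is given on each array because of Dox replicate 3 after its values were seen, had a signal of 45.2, 77.3 and 49.2 after PBS and 72.4, 33.5 and 321.7 after Dox. Dox replicate 3 stood far above the other arrays, and the log2 difference of 0.73 (SE 0.71, limma adjusted p = 0.73) was -0.18 without it. The diacylglycerol acyltransferases DGAT1 and DGAT2, which complete triglyceride synthesis, had log2 differences of -0.25 (95% confidence interval -0.78 to 0.28) and 0.15 (95% confidence interval -0.61 to 0.92). LIPE, the hormone-sensitive lipase, had signals of 10.4 to 33.4 after PBS and 10.5 to 38.4 after Dox.

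Of 6 measured adipocyte markers 4 were higher and 2 lower after Dox, with a summed signal of 992 to 1128 after PBS and 977 to 1326 after Dox. ADIPOQ, the adiponectin gene, had signals of 0.3 to 4.3 and was inside the Tag range on 5 of the 6 arrays. FABP4, by far the brightest of the 6, had a log2 difference of -0.03 with overlapping groups. RETN, the resistin gene, had signals of 2, 0.3 and 3.8 after PBS and 5.7, 170.4 and 50.5 after Dox. It was the only marker of the 6 without overlap, beside 6.19% of all probe sets that were higher without overlap. RETN was inside the Tag range on 3 of the 6 arrays. The part of fat cells in the PNPLA2 and GPAM differences was not tested.

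The uncoupling proteins gave dim signals. UCP2, a mitochondrial carrier of the uncoupling protein family, had a signal of 16.2, 3.3 and 8 after PBS and 26, 10.7 and 17.5 after Dox. PBS replicate 1 lay above Dox replicate 2, and the log2 difference was 1.17 (SE 0.62, limma adjusted p = 0.567). It was 0.57 without PBS replicate 2 and 0.44 with an offset of 16 before log2. UCP3, the muscle form, had signals of 0.9 to 3.7 and was inside the Tag range on 5 of the 6 arrays.

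Animals of 1 group differed from each other by more than the group medians did. Taken per array, the median deviation of the 17 mitochondrial oxidation and electron transfer genes from the mean log2 signal of the PBS arrays was -0.18, 0.22 and 0.01 in PBS replicates 1, 2 and 3. It was 0.18, -0.04 and -0.26 in Dox replicates 1, 2 and 3. PBS replicate 1 was the lowest of its group for 14 of these 17 genes, and Dox replicate 3 was the lowest of its group for 12 and the lowest of all 6 arrays for 10. The same median over all probe sets lay between -0.09 and 0.02 on the 6 arrays.

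PDK4, which encodes a kinase that holds back glucose oxidation by inhibiting pyruvate dehydrogenase, is described because of its spread after its values were seen. Its signal was 40.1, 2465.9 and 1516.7 after PBS and 2017.3, 244.6 and 1529.7 after Dox. PBS replicate 1 and Dox replicate 2 were far below the other arrays, and the 95% confidence interval of its log2 difference of 0.78 was -2.54 to 4.09.

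**Figure D3:**
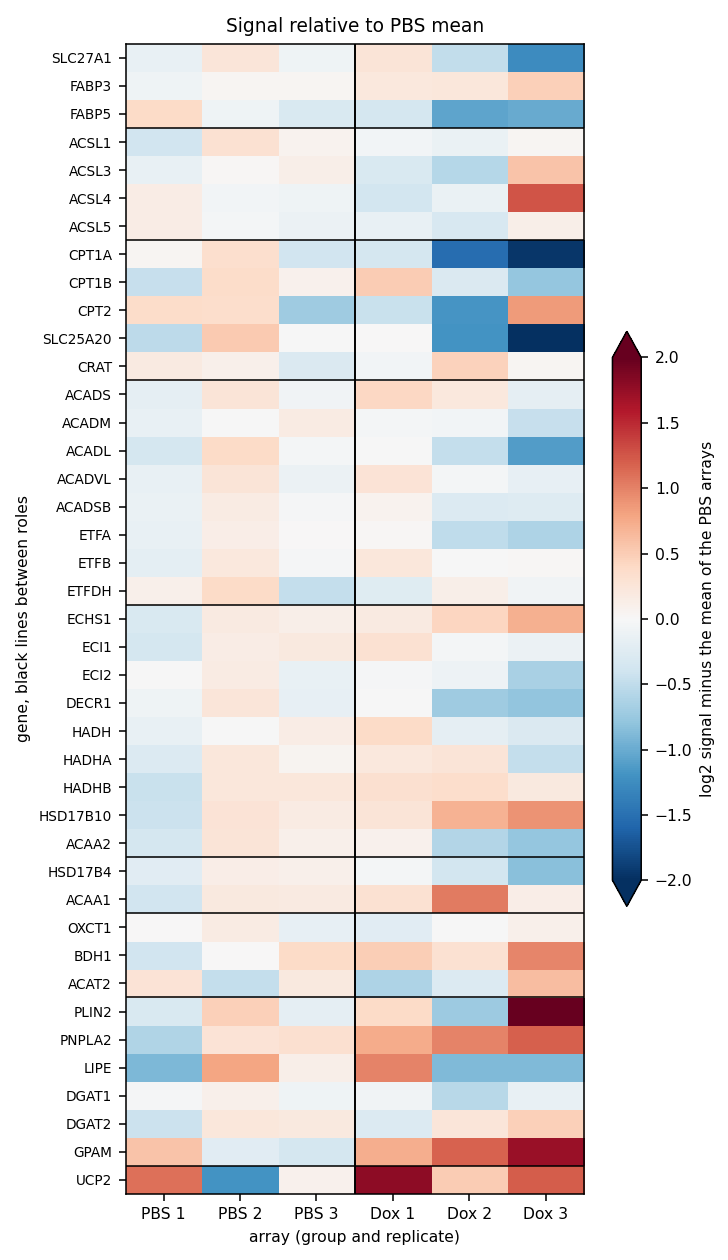
Log2 signal of 41 genes on each array minus the mean of the 3 PBS arrays, with red for higher and blue for lower values, black lines between roles and the colour scale ending at 2 in either direction. Dox replicate 3 holds the lowest value of the 6 arrays for 15 of the 41 genes and the highest for 12.

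For 15 of the 43 genes more than 1 probe set carried the symbol, and these did not always give the same picture. ACADVL had a second, dimmer probe set with signals of 26.8, 25 and 26.3 after PBS and 37.3, 53.2 and 54.9 after Dox. Its groups did not overlap and its log2 difference was 0.88 (SE 0.28, limma adjusted p = 0.521), whereas the main ACADVL probe set had 0.02 and the mean of both gave 0.45. HADHB had log2 differences of 0.57 and 0.29 at its other probe sets, all above 0 like that of its main one, and the groups did not overlap at the first. Among genes with a fold, for DGAT1, ECI2 and ETFDH the second probe set had the opposite sign, with values of 0.17, 0.12 and 0.06.

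Other genes of fatty acid and ketone metabolism, listed apart from the 43, numbered 69, of which 44 had a probe set. There were 19 with a higher and 25 with a lower mean log2 signal after Dox and a median log2 difference of -0.02. LPL, SCP2 and HIBCH passed at an unadjusted limma p no higher than 0.05 (3 genes, 6.82%). This compares with 9.54% of all probe sets and 11.5% of the named genes. After adjustment limma called 0, as did the methods' t-test. The count of 3 was 1 without PBS replicate 1 (4.51% of all probe sets) and 0 without PBS replicate 3 (6.73%). It was 0 without Dox replicate 2 (6.83%) and 11 of 44 without Dox replicate 1 (16.2%). LPL, the lipoprotein lipase that frees fatty acids at the capillary wall, had a signal of 328.9, 403.5 and 300.1 after PBS and 381.4, 513 and 572.9 after Dox (log2 difference 0.50, SE 0.22, limma adjusted p = 0.523). SCP2, a peroxisomal thiolase and sterol carrier, had a signal of 722.5, 537.2 and 596.1 after PBS and 510.2, 424.9 and 323.1 after Dox (log2 difference -0.57, SE 0.22, limma adjusted p = 0.521). All Dox arrays lay below all PBS arrays for SCP2, and the groups overlapped for LPL and HIBCH. Over the 44 genes the groups did not overlap for 4 (9.09%, beside 16.3% of all probe sets). These were SCP2, ABCD3, AGPAT1 and PPARG, all lower (background 10.1%). HIBCH, a hydrolase of valine breakdown, had a signal of 176.4, 194.6 and 150.7 after PBS and 158.8, 95.1 and 74.7 after Dox (log2 difference -0.73, SE 0.30, limma adjusted p = 0.521).

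The difference between the groups varied with how bright a probe set was, and many oxidation enzymes are bright. Over 759 probe sets with a geometric mean signal of at least 1000, the median log2 difference was 0.19, and 37.9% had groups that did not overlap. The 17 fatty acid and ketone genes in this range had a median log2 difference of -0.03, and 11.8% had groups that did not overlap. After quantile normalization the medians were -0.01 for the bright probe sets and -0.16 for these 17 genes, and after cyclic loess normalization they were 0.02 and -0.13. The part of array scaling in the differences of these genes was not tested.

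**Figure D4:**
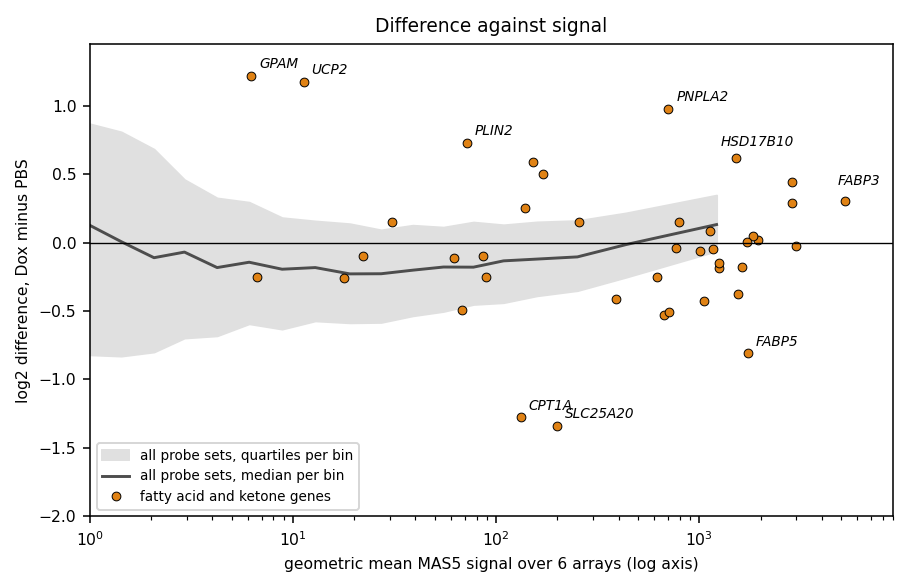
Dox minus PBS difference in mean log2 signal (y axis) against the geometric mean MAS5 signal over the 6 arrays (x axis, log scale), with orange points for 41 fatty acid and ketone genes and a grey line and band for the median and quartiles of all probe sets in bins of equal count. The grey median is lowest at middling signals (-0.229) and rises to 0.131 in the brightest bin. The dimmest bins, left of the plotted range, have medians of up to 0.192. Taken over all probe sets of at least 1000, the median is 0.19, and the 17 orange genes there have a median of -0.03.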

How the data were processed

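Total RNA from LV free wall was labelled with the Ambion MessageAmp Premier kit and hybridized to 6 arrays. The authors computed the deposited intensities with GCOS 1.4 and the MAS5 algorithm at default settings, and the values carry its background correction and scaling. Tested on the values, the 2% trimmed mean was 100.03 or 100.04 on every array. Scanner files were not used here. Of 24123 probe sets, 124 array controls were left out. Signals of 0 were set to 0.1, the lowest signal above 0, before log2. In R 4.3.3, limma 3.58.1 (lmFit, and eBayes with an intensity trend) was fitted to all 6 arrays over 23999 probe sets without a filter or covariate, with Benjamini-Hochberg adjustment, and tested on simulated data. A call needed an adjusted p no higher than 0.05 and a 2-fold change or more. All p-values are two-sided.

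Gene names came from the platform annotation, in which 10069 of the tested probe sets had 1 symbol, 198 several and 13732 none. For 59 of the 61 probe sets of the 43 genes the gene ID was found in RefSeq (Sscrofa11.1), each under the same symbol. The members and lists were chosen with earlier results of these data known. Values on each array are given for genes whose groups do not overlap or whose unadjusted p is no higher than 0.05, and for the gene with the smallest p and the brightest gene of each of 9 roles, and for the other pathway genes at an unadjusted p no higher than 0.05. SLC25A20, PLIN2, PDK4, RETN and the second ACADVL probe set were added after their values were seen. No fold is given for a gene inside the Tag range on 4 or more arrays. Groups and replicate numbers came from the sample titles. As alternatives, signals were normalized by quantile or cyclic loess or given an offset of 16, and the rest were a filter that keeps probe sets above the Tag range on at least 3 arrays, eBayes without a trend, the t-test of the study's general statistics on log2 signals, the replicate number as a block, averaging the probe sets of each gene, an unadjusted threshold and leaving out each array. Figures were drawn with matplotlib 3.10.9.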

Additional observations from a re-analysis of the deposited data

Results flagged for a closer look

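The hybridization spike-in controls (bioB, bioC, bioD and cre), bacterial and phage transcripts added to each array in fixed amounts and used in no comparison above, were higher on the Dox arrays than on the PBS arrays, which is why they are listed here. Over 9 probe sets the median log2 difference was 0.41 (range 0.33 to 0.63), with 9 of 9 higher and without overlap. Their median deviation from the PBS mean was 0.34, 0.21 and 0.70 in Dox replicates 1, 2 and 3. The part of this in the differences of the fatty acid and ketone genes was not tested. Groups of 3 animals are too small for the outlier test used for larger groups.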

How the results depend on the processing

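Under 14 alternatives the median log2 difference of the 43 genes, -0.04 in the main fit, lay between -0.08 and 0.11. It turned above 0 without PBS replicate 2 (0.11) and without Dox replicate 2 (0.05). The median deviation of these genes on single arrays from their group mean had a standard deviation of 0.155. That is a spread of arrays and not of the group difference. Of 41 genes with a fold, 22 kept their sign throughout, PNPLA2, FABP5, CPT1A, SLC25A20, HSD17B10 and BDH1 among them. The smallest adjusted p of any of the 41 under any alternative was 0.094. With single arrays left out, the number of probe sets called over the whole array ran from 0 to 14 (without Dox replicate 1). The count of the 43 genes at an unadjusted p no higher than 0.05 ran from 3 to 13, and that of the other pathway genes from 0 to 11. The share of all probe sets at that p ran from 4.51% (without PBS replicate 1) to 16.2% (without Dox replicate 1). Without adjustment, 1356 probe sets had both a p no higher than 0.05 and a 2-fold change or more. Of the 43 genes, 8 passed under cyclic loess normalization (8.85% of all probe sets). With eBayes without a trend 3 passed (7.4%), CPT1A, PNPLA2 and GPAM, while FABP5 and HSD17B10 did not. The methods' t-test passed 3 (7.16%), FABP3, PNPLA2 and GPAM, while FABP5, CPT1A and HSD17B10 did not pass. Of the other pathway genes 0 passed with eBayes without a trend or with the t-test. The causes were not tested.

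Signs turned under quantile and cyclic loess normalization for ACSL3 (0.04 and 0.07), ACSL5 (0.06 and 0.08), ACADVL (-0.14 and -0.13), ETFB (-0.02 and 0.00), ECI1 (-0.11 and -0.09), HADHA (-0.11 and -0.13) and ACAT2 (0.15 and 0.12), and under quantile normalization for FABP3 (-0.01). With single arrays left out, signs turned for 17 genes, with ranges of -0.23 to 0.11 for ACSL1, -0.43 to 0.13 for ACSL3, -0.26 to 0.56 for ACSL4, -0.53 to 0.11 for CPT1B, -0.81 to 0.21 for CPT2, 0.00 to 0.25 for CRAT, -0.11 to 0.15 for ACADVL, -0.01 to 0.19 for ETFB, -0.30 to 0.13 for ETFDH, -0.13 to 0.14 for ECI1, -0.23 to 0.10 for HADH, -0.14 to 0.24 for HADHA, -0.13 to 0.05 for OXCT1, -0.45 to 0.17 for ACAT2, -0.18 to 1.46 for PLIN2, -0.88 to 0.13 for LIPE and -0.06 to 0.36 for DGAT2.

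The sample titles do not say whether replicate numbers pair the animals, and a note in the study speaks of pairs of failing and non-failing samples. Deviations of same-numbered arrays from their group means correlated at -0.0174, 0.121 and -0.0826 over 14015 probe sets above the Tag range on all arrays. Those of arrays with unlike numbers correlated at -0.143 to 0.103. With so few animals these values cannot settle whether the numbers mark pairs. With the replicate number as a block, 7 of the 43 genes passed at an unadjusted p no higher than 0.05 (9.64% of all probe sets), 4 of them shared with the 5, and 0 probe sets were called after adjustment. Signals near the Tag range limit what can be read for CPT2, GPAM, UCP2, UCP3 and ACACA.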
